A study of Homo sapiens with 6 samples.

Results

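The integrin and laminin genes are the 38 protein-coding genes, of 58302 genes in the deposited RIP-seq table, whose symbols begin with ITGA, ITGB or LAM and end in the number or letter of a chain. The rule uses the symbol and no measured value, and it takes 18 integrin α genes, 8 integrin β genes and 12 laminin genes. They were measured in SW480 and DLD-1, epithelial cell lines from human colorectal cancer (CRC), both wild type and without treatment. In each line RNA was sequenced as Input, after pull-down of the RNA acetyltransferase NAT10 with its antibody (RIP-seq), and after immunoprecipitation with an antibody against N4-acetylcytidine, the mark ac4C that NAT10 writes (acRIP-seq). RIP over Input asks which mRNAs come down with NAT10, and acRIP peaks ask which mRNAs carry ac4C and where. Each of the 6 groups held 1 library, so every difference compares libraries rather than conditions, no p-value was computed, and 1 line stands for each label. An IgG library was not analysed here.

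Integrins are receptors made of 1 α and 1 β chain that span the plasma membrane and tie the cytoskeleton to the extracellular matrix. The α chain largely sets the ligand: ITGA1 and ITGA2 bind collagen, ITGA3, ITGA6 and ITGA7 bind laminin, and ITGA5 and ITGAV bind matrix proteins with an RGD motif, while ITGAE, ITGAX, ITGAL, ITGAM and ITGAD are best known from leukocytes. ITGB1 pairs with many α chains, ITGB4 with ITGA6 alone, and ITGB5, ITGB6 and ITGB8 with ITGAV. Laminins are cross-shaped trimers of an α, a β and a γ chain that form the sheet of the basement membrane. Laminin 332, which holds LAMA3 and LAMB3, is the ligand of the ITGA6 and ITGB4 receptor in hemidesmosomes, and laminins 511 and 521, from LAMA5 with LAMB1 or LAMB2 and LAMC1, are widespread under epithelia, including that of the colon.

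The libraries labelled as RIP of 1 line resembled the Input of the other line. Across the 22 members past the filter, Pearson's r of log2(FPKM + 1) was 0.972 between the SW480-labelled RIP library and the DLD-1-labelled Input, against 0.810 for the pair labelled SW480. It was 0.973 between the DLD-1-labelled RIP library and the SW480-labelled Input, against 0.717 for the pair labelled DLD-1. Some members passed the filter only through 1 Input and the RIP library of the other label, which raises r across the labels and lowers it within them. Across all 11605 protein-coding genes past the filter, r was 0.895 and 0.912 across the labels, against 0.755 (SW480) and 0.724 (DLD-1) within them. These are correlations across genes, which are not independent replicates. Libraries are named here by their label, and each RIP/Input ratio is given over both Inputs. Whole reads solved from the FPKM columns summed to between 10154780 and 23610121 per library, and the depth of the acRIP libraries is unknown. All 7 epithelial markers reached 1 FPKM in both libraries labelled SW480 and 6 of 7 in those labelled DLD-1, with a summed level of 1396 to 3342 FPKM. The summed level was 0.0789 to 1.53 FPKM for 6 leukocyte markers, 0.401 to 2.21 for 6 fibroblast markers and 0.157 to 0.808 for 4 endothelial markers. PTPRC, the general leukocyte marker, was at 0 in both Inputs, and so were CD3E and LYZ. CD14 and CD68, of myeloid cells, were at 1.16 and 0.364 FPKM in the Input labelled SW480 and at 0 and 0.0789 FPKM in that labelled DLD-1. NAT10 mRNA was at 21.2 and 23.0 FPKM in the Inputs labelled SW480 and DLD-1 and at 20.8 and 14.3 FPKM in the RIP libraries of these labels. In bulk RNA, fewer cells that express a gene and less of its RNA per cell cannot be told apart.

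FPKM is scaled by transcript length and library depth, so levels can be set side by side between genes. Of the 38 genes, 22 had a mean of at least 1 FPKM over both Inputs and both RIP libraries, namely 14 of 26 integrin genes and 8 of 12 laminin genes. The 16 genes under this filter never exceeded 1.16 FPKM, the value of ITGA9 in the RIP library labelled DLD-1. ITGA4, ITGA8, LAMA4 and LAMB4 were listed at 0 in all 4 libraries. The lowest mean past the filter was 1.01 FPKM (ITGB8) and the highest mean under it 0.625 FPKM (ITGA9). Of the 22 genes, 17 had at least 1 FPKM in both Inputs. The other 5, ITGA1, ITGAX, ITGB6, ITGB8 and LAMC3, passed through 1 Input and the RIP library of the other label, so their differences between lines were a condition of passing.

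**Figure D1:**
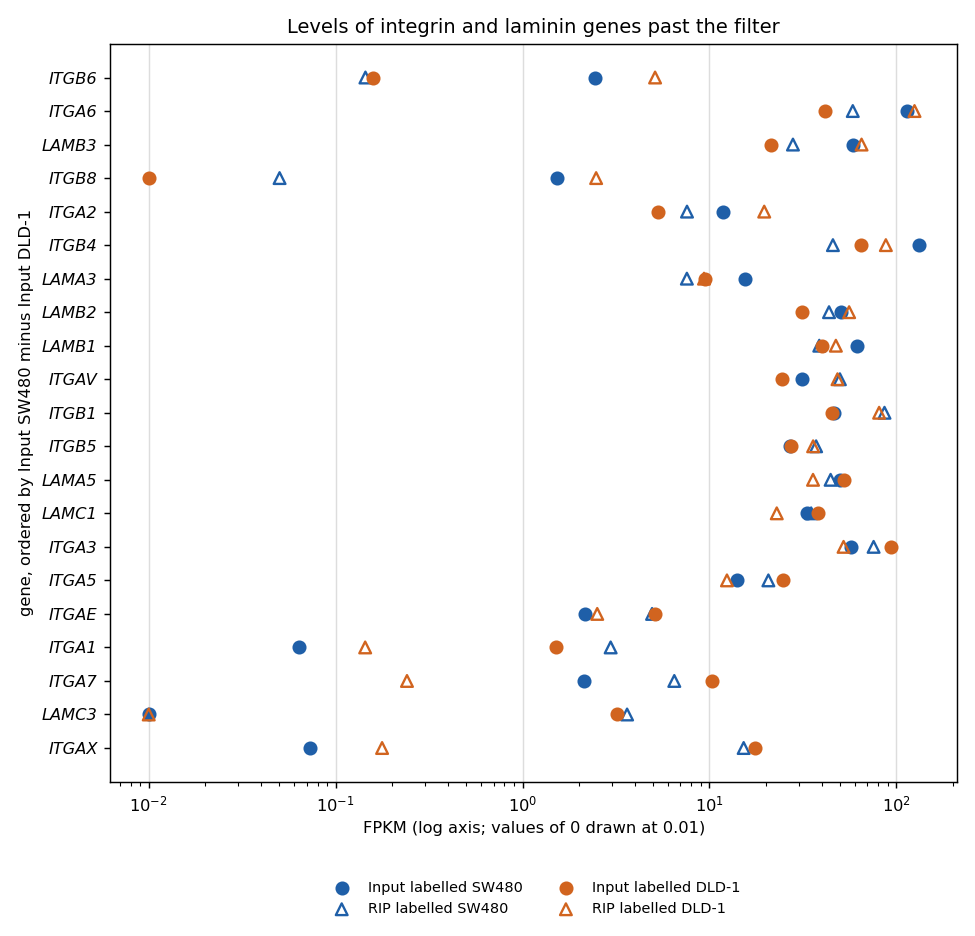
FPKM of genes past the filter (log axis, values of 0 drawn at 0.01) in the Inputs (filled circles) and RIP libraries (open triangles) labelled SW480 (blue) and DLD-1 (orange), 1 library each, ordered by the difference between the Inputs. At both ends of the order, each RIP library lies near the Input of the other label, while ITGB1, ITGAV and ITGB5 have both RIP libraries above both Inputs.

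Among the laminin receptors, ITGA6 and ITGB4 were the most abundant members on average (means of 84.9 and 82.6 FPKM over the 4 libraries), and both were higher in the Input labelled SW480. ITGA6 was at 115 FPKM in the Input labelled SW480 and 41.5 in the Input labelled DLD-1, and in RIP it was at 58.5 (SW480 label) and 125 FPKM (DLD-1 label). ITGB4 was at 132 and 64.5 FPKM in the Inputs in the same order, and at 45.8 and 87.9 FPKM in the RIP libraries. For both genes the higher Input carried the label SW480 and the higher RIP library the label DLD-1. The log2 difference between Inputs (SW480 minus DLD-1, on FPKM + 1) was 1.44 for ITGA6 and 1.02 for ITGB4, with counting SEs of 0.03 and 0.02. The second pair of Input columns, deposited with the acRIP data, gave 1.45 and 1.08.

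ITGA3, the α chain of the other main epithelial laminin receptor, had the opposite order. It was at 57.3 and 93.2 FPKM in the Inputs labelled SW480 and DLD-1 and at 75.6 and 52.2 FPKM in the RIP libraries, an Input difference of -0.69 (counting SE 0.03), under 2-fold. ITGA7, known from muscle, was at 2.13 and 10.3 FPKM in the Inputs and at 6.49 and 0.241 FPKM in the RIP libraries. Its Input difference was -1.85 (counting SE 0.10) and -1.87 in the acRIP-table Inputs. ITGA7 shared 355 bases of its span with BLOC1S1, and whether the counting used strand is not given in the sources used here.

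LAMB3 and LAMA3, chains of laminin 332, were both higher in the Input labelled SW480, by different amounts. LAMB3 was at 58.5 and 21.3 FPKM in the Inputs labelled SW480 and DLD-1 and at 28.0 and 65.2 FPKM in the RIP libraries, with an Input difference of 1.42 (counting SE 0.05). LAMA3 was at 15.5 and 9.42 FPKM in the Inputs and 7.58 and 9.35 FPKM in the RIP libraries, a difference of 0.67 (counting SE 0.04). Thus LAMB3 passed 2-fold between the Inputs, and LAMA3 kept its sign in both pairs of Inputs (0.94 on FPKM + 1 in those of the acRIP table, and 2.08-fold by FPKM).

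The chains of laminins 511 and 521 lay between 31.3 and 61.7 FPKM in the Inputs, and none differed 2-fold between them. LAMA5 was at 49.995 and 52.2 FPKM in the Inputs labelled SW480 and DLD-1 and at 44.5 and 35.8 FPKM in the RIP libraries. LAMC1 was at 33.1 and 38.3 FPKM in the Inputs and at 35.0 and 22.9 FPKM in the RIP libraries. The β chains were somewhat higher in the Input labelled SW480. LAMB1 was at 61.7 and 40.1 FPKM in the Inputs and at 38.7 and 47.5 FPKM in the RIP libraries. LAMB2 was at 50.3 and 31.3 FPKM in the Inputs and at 43.6 and 55.9 FPKM in the RIP libraries. LAMC3, a γ chain best known from brain and retina, was listed at 0 in the Input labelled SW480 and the RIP library labelled DLD-1, and was at 3.20 FPKM in the Input labelled DLD-1 and 3.63 FPKM in the RIP library labelled SW480. Against the 3 reads that a count of 0 allows in a library, LAMC3 was at least 95.7-fold higher in the Input labelled DLD-1 than in the other Input. Such floors and all counting errors given here cover counting only, since PCR copies are not independent molecules.

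Of the collagen receptors, ITGA2 and ITGA1 had opposite orders. ITGA2 was at 11.9 and 5.33 FPKM in the Inputs labelled SW480 and DLD-1 and at 7.59 and 19.6 FPKM in the RIP libraries, an Input difference of 1.03 (counting SE 0.06). ITGA1 was at 0.0636 and 1.51 FPKM in the Inputs and at 2.96 and 0.144 FPKM in the RIP libraries, from 10 and 219 reads in the Inputs and 944 and 39 in the RIP libraries. The acRIP-table Inputs kept this sign but gave ITGA1 only 0.0294 and 0.309 FPKM, a difference of -0.35. ITGA1 spans PELO, a protein-coding gene at 4.82 to 10.1 FPKM in the 4 libraries, and the part of this overlap in its values was not tested.

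The partners of ITGAV that differed were low. ITGB6, which with ITGAV activates latent TGF-β, was at 2.43 and 0.158 FPKM in the Inputs labelled SW480 and DLD-1 and at 0.144 and 5.12 FPKM in the RIP libraries. ITGB8 was at 1.53 FPKM in the Input labelled SW480 and listed at 0 in that labelled DLD-1, and in RIP it was at 0.0501 (SW480 label) and 2.48 FPKM (DLD-1 label). By FPKM, ITGB6 was 15.3-fold higher in the Input labelled SW480, and ITGB8 at least 60.3-fold against the floor of 3 reads. The other RGD-binding chains were closer in the RIP-table Inputs. ITGAV was at 31.1 and 24.4 FPKM in the Inputs and 49.9 and 48.5 FPKM in the RIP libraries. ITGB5 was at 27.0 and 27.5 FPKM in the Inputs and 37.2 and 35.9 FPKM in the RIP libraries. ITGA5, the fibronectin receptor chain, was at 14.0 and 24.6 FPKM in the Inputs and 20.7 and 12.4 FPKM in the RIP libraries. Its Input difference was -0.77, under 2-fold, but the acRIP-table Inputs (5.50 and 12.4 FPKM) gave -1.04, past 2-fold. ITGB1, the common β chain, was at 46.6 and 45.5 FPKM in the Inputs and 86.4 and 80.9 FPKM in the RIP libraries. Both RIP libraries therefore lay above both Inputs for ITGAV, ITGB5 and ITGB1, whichever way the labels were paired, and for ITGA5 they did not.

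Among the chains known from leukocytes, ITGAX had the largest difference of all members. ITGAX, also called CD11c, was at 0.0727 and 17.6 FPKM in the Inputs (SW480, then DLD-1) and at 15.2 and 0.177 FPKM in the RIP libraries in that order. The Input labelled SW480 held 5 reads of ITGAX and the Input labelled DLD-1 1117 reads, a difference of -4.12 (counting SE 0.06), and the acRIP-table Inputs gave 0.0642 and 8.13 FPKM. Its partner ITGB2 was at 0.226 to 0.558 FPKM in the 4 libraries. ITGAE, which binds E-cadherin, was at 2.16 and 5.15 FPKM in the Inputs and at 4.93 and 2.51 FPKM in the RIP libraries. The span of ITGAE overlaps those of HASPIN and P2RX5. P2RX5 was at 1.36 and 10.7 FPKM in the Inputs and 7.07 and 1.32 FPKM in the RIP libraries, the same order as ITGAE. HASPIN had the opposite order, at 10.5 and 4.71 FPKM in the Inputs and 8.56 and 15.1 FPKM in the RIP libraries. The part of these overlaps in the value of ITGAE was not tested. Of the 22 genes, 5 overlapped a protein-coding gene on either strand. ITGB4 was among them and shared 6350 bases of its span with GALK1, at 8.10 to 10.2 FPKM in the 4 libraries. The part of this overlap in the values and peaks of ITGB4 was not tested.

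In counts, 6 of the 22 members were at least 2-fold higher in the Input labelled SW480 (ITGA2, ITGA6, ITGB4, ITGB6, ITGB8 and LAMB3), beside 8.14% of the 11605 protein-coding genes past the same filter. At least 2-fold lower were 4 members (ITGA1, ITGA7, ITGAX and LAMC3), beside 13.8% of all. The median difference was 0.09 for members and -0.06 for all. In the RIP libraries, 4 of 22 members were at least 2-fold higher in the library labelled SW480, beside 12.2% of all, and 5 were at least 2-fold lower, beside 6.82%. All 10 members past 2-fold between the Inputs had a RIP difference of the opposite sign, beside 96.9% of the 2552 protein-coding genes past 2-fold between the Inputs. For 5 of the 10 (ITGA1, ITGAX, ITGB6, ITGB8 and LAMC3) passing the filter rested on this pattern. The other 5, with at least 1 FPKM in both Inputs, all had the opposite sign, beside 97.6% of 1615 such protein-coding genes. In the acRIP-table Inputs all 10 kept the sign of the RIP-table Inputs, beside 98.6% of all, and 8 of them were again past 2-fold, beside 75.3%. The shares of members with an opposite or a kept sign lie near those of all genes. For the 6 members higher in the Input labelled SW480 and the 5 lower in RIP, the share was above that of all genes, which was not tested. These 5 (ITGA2, ITGA6, ITGB6, ITGB8 and LAMB3) are among the 6, so the 2 counts are not separate observations. ITGB6 and ITGB8 passed the filter through this pattern. ITGA2 and ITGB4 lay just past 2-fold between the Inputs (log2 differences of 1.03 and 1.02).

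**Figure D2:**
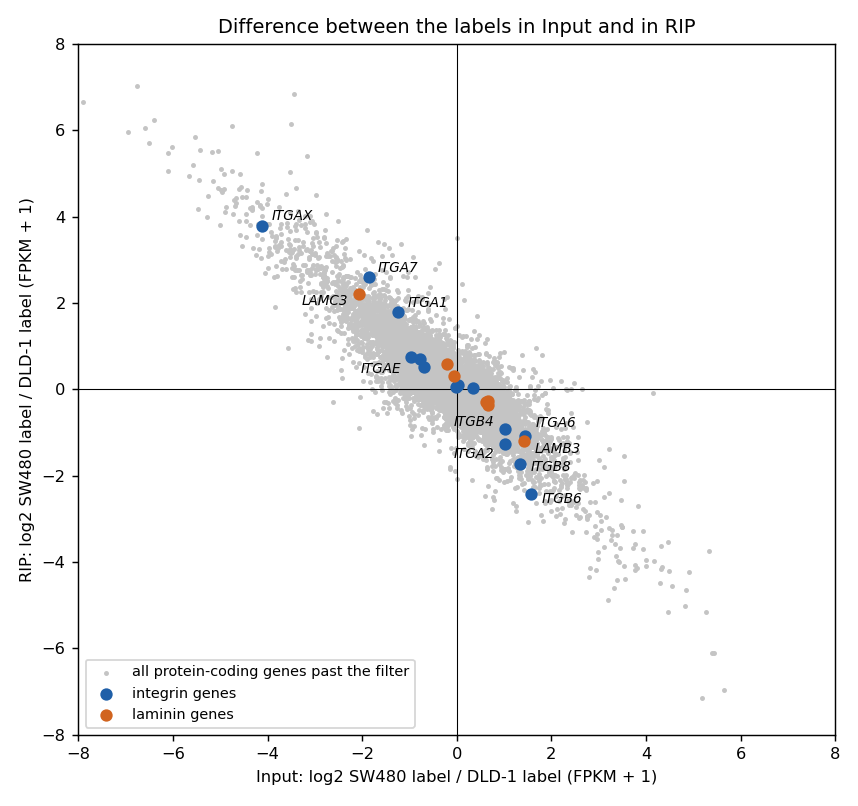
Difference between the labels in Input (horizontal) and in RIP (vertical), both as log2 of SW480 over DLD-1 on FPKM + 1, for integrin genes (blue), laminin genes (orange) and all 11605 protein-coding genes past the filter (grey). The members lie on the same falling band as all genes, from ITGAX at -4.12 and 3.79 to ITGB6 at 1.57 and -2.42.

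The sequences before the start sites are shown for the members that differed together between the Inputs, as far as the RefSeq promoter windows used here hold them. These windows (GRCh38.p14) cover 26 of the 38 members, among them 5 of the 6 members higher in the Input labelled SW480 and 1 of the 4 higher in the Input labelled DLD-1 (ITGA1). Where a gene had several windows, the one farthest upstream was taken. Each line gives the 250 bases before the start site, read 5′ to 3′ on the strand of the gene. Capitals mark matches, on either strand, to an AP-1 site (TGANTCA), a GC box (GGGCGG) or a TATA box (TATAAA).
ITGA2 (chr5:52989102-52989351, plus strand): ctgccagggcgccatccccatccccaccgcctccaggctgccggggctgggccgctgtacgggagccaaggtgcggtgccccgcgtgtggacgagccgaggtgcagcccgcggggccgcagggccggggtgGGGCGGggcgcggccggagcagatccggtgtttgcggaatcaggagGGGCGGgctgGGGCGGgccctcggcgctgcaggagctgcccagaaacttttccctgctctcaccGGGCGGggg
ITGA6 (chr2:172427086-172427335, plus strand): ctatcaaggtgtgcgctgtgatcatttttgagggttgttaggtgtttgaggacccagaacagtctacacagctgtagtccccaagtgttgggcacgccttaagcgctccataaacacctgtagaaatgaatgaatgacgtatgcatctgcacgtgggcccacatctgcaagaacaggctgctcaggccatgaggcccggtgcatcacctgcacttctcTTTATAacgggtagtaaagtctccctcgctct
ITGB6 (chr2:160200273-160200522, minus strand): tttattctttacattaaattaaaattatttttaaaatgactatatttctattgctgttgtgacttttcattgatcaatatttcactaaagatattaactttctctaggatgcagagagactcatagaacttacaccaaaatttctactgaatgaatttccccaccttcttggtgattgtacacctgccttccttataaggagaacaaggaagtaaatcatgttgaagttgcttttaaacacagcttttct
ITGB8 (chr7:20330650-20330899, plus strand): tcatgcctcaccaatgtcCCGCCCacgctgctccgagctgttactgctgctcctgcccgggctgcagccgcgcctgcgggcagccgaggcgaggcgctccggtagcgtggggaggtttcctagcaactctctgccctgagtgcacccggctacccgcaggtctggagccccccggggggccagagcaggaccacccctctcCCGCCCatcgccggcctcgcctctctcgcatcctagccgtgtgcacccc
LAMB3 (chr1:209652426-209652675, minus strand): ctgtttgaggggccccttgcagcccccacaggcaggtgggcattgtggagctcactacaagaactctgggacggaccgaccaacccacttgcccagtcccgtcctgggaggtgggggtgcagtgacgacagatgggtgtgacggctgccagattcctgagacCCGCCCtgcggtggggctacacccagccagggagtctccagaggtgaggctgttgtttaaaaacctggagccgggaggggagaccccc
ITGA1 (chr5:52787666-52787915, plus strand): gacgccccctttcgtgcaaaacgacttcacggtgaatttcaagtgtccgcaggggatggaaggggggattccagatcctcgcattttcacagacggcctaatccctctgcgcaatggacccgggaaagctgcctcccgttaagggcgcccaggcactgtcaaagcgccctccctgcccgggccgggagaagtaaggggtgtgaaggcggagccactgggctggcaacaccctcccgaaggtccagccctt
The windows of the genes higher in the Input labelled SW480 had no pattern in common. ITGA2 held 4 GC boxes at 76.4% G and C, ITGB8 2 GC boxes at 71.2% and LAMB3 1 at 64%. ITGA6 held 1 match to the TATA box, on the strand opposite to the gene and 26 bases before the start, at 50.8% G and C. ITGB6 held none of these patterns at 30% G and C. ITGA1 held none of them at 62%. Of all 35116 windows, 42.6% held a GC box, 10.7% a TATA box and 6.57% an AP-1 site, and of the 26 members 13, 1 and 1 did. These matches describe letters only and are not shown sites.

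RIP over Input was then taken for each member as log2((RIP FPKM + 1)/(Input FPKM + 1)), which shrinks the fold of genes at a low level, and a gene was called at 2-fold. Over the Input of the same label, the RIP library labelled SW480 had 4 of 22 members at least 2-fold higher (ITGA1, ITGA7, ITGAX and LAMC3), beside 22% of all protein-coding genes, and 4 at least 2-fold lower (ITGB4, ITGB6, ITGB8 and LAMB3), beside 9.53%. The RIP library labelled DLD-1 had 5 members higher (ITGA2, ITGA6, ITGB6, ITGB8 and LAMB3), beside 18% of all, and 4 lower (ITGA1, ITGA7, ITGAX and LAMC3), beside 16.3%. The 4 members called higher under the SW480 label were thus the 4 called lower under the DLD-1 label, and they were the 4 members higher in the Input labelled DLD-1. For ITGA1, ITGAX and LAMC3 passing the filter rested on this pattern. With at least 1 FPKM in both Inputs, 1 member was called higher under the SW480 label and 1 lower under the DLD-1 label. Opposite signs under the 2 labels, with both 95% counting intervals clear of 0, were found for 16 of 22 members, beside 40.4% of 11577 protein-coding genes with solved reads. These intervals narrow with a gene's reads, and the shares were not matched on level. The 16 include ITGA1, ITGAX, ITGB6, ITGB8 and LAMC3, which passed the filter through 1 Input and the RIP library of the other label. The median ratio of members was 0.07 under the SW480 label and 0.23 under the DLD-1 label, beside 0.25 and 0.04 for all protein-coding genes. Taken from the median of all genes, the members' median was -0.18 under the SW480 label.

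Over the Input of the other label nearly all of these calls were gone. The RIP library labelled SW480 then had 1 member at least 2-fold higher (ITGAV, at 1.004 with a counting SE of 0.03), beside 10.9% of all, and 0 lower, beside 3.58%. The RIP library labelled DLD-1 had 0 members at least 2-fold higher, beside 10.7% of all, and 1 lower (ITGA7, at -1.33 with a counting SE of 0.10), beside 3.86%. The medians were 0.03 and 0.12, beside 0.12 and 0.10 for all protein-coding genes. ITGAX, the extreme member, moved from 3.92 and -3.98 over the Inputs of the same label to -0.19 and 0.13 over those of the other label. LAMB3 moved from -1.04 and 1.57 to 0.38 and 0.15, and ITGA6 from -0.96 and 1.57 to 0.48 and 0.13. The largest distance from 0 among the 22 members was 3.98 over the same label and 1.33 over the other.

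**Figure D3:**
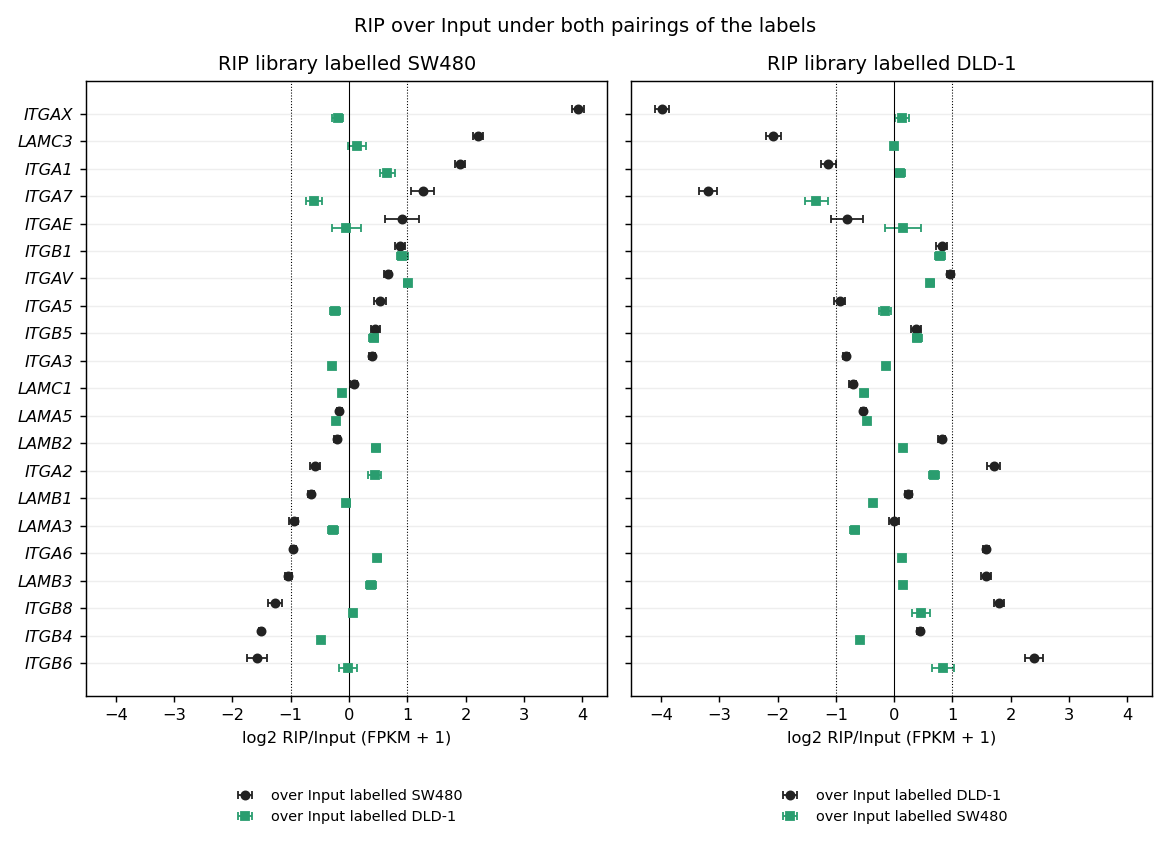
log2 RIP/Input on FPKM + 1 of genes past the filter, for the RIP libraries labelled SW480 (left) and DLD-1 (right), over the Input of the same label (black circles) and of the other label (green squares), with 95% counting intervals and dotted lines at 2-fold. The black values of many genes change sign between the panels, most of all ITGAX at 3.92 and -3.98. Those of ITGB1, ITGAV, ITGB5, LAMA5 and LAMA3 keep their sign. The green values lie within 1.33 of 0.

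ITGB1, ITGAV and ITGB5 were above Input in every pairing. ITGB1 was at 0.88 and 0.82 over the Inputs of the same label (RIP libraries labelled SW480 and DLD-1) and at 0.91 and 0.78 over those of the other label, with counting SEs of 0.04 to 0.05. ITGAV was at 0.66 and 0.96, and at 1.004 and 0.62, each with a counting SE of 0.03. ITGB5 was at 0.45 and 0.37, and at 0.43 and 0.40, each with a counting SE of 0.04. With the acRIP-table Inputs added, scaled to the same median, ITGB1 ranged from 0.35 to 0.91, ITGAV from 0.13 to 1.004 and ITGB5 from 0.37 to 0.52 over 8 pairings. These were 3 of 22 members (13.6%), beside 19.6% of all protein-coding genes above Input in all 8 pairings. The sign of these genes did not depend on the label or the Input table, and their count was no higher than that of genes in general.

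LAMA5 was the 1 member below Input in all 8 pairings, between -0.55 and -0.06, beside 9.40% of all protein-coding genes. LAMA5 was at -0.16 and -0.53 over the Inputs of the same label and at -0.23 and -0.47 over those of the other label, each with a counting SE of 0.02. ITGB4 was below Input over the other label, at -0.49 and -0.58, and LAMA3 at -0.28 and -0.68, but over the same label ITGB4 was at -1.51 and 0.44 and LAMA3 at -0.95 and -0.01. LAMC1 was at -0.12 and -0.51 over the other label and at 0.08 and -0.71 over the same label. LAMB1 was at -0.05 and -0.37, against -0.66 and 0.24. LAMB2 was at 0.47 and 0.15, against -0.20 and 0.82. ITGA2 was at 0.44 and 0.68 over the other label and at -0.59 and 1.71 over the same label.

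ac4C peaks, called by the authors in each line on acRIP over Input, were listed in 13 of the 22 members in SW480 (59.1%, exact binomial 95% interval 36.4 to 79.3), beside 47.7% of all protein-coding genes past the filter, and in 14 of 22 in DLD-1 (63.6%, 40.7 to 82.8), beside 52.6%. The intervals of both member shares hold the share of all genes. A peak in both lines was listed for 12 members, among them ITGA3, ITGA6, ITGAE, ITGB1, ITGB4, ITGB5, LAMA5, LAMB1, LAMB2, LAMB3 and LAMC1. ITGA2 and LAMA3 had peaks in DLD-1 alone, and ITGB8 in SW480 alone. ITGA1, ITGA5, ITGA7, ITGAV, ITGAX, ITGB6 and LAMC3 had none in either line. Among members of 10 FPKM or more on average, 13 of 15 had a peak in either line (86.7%), beside 81.1% of 5780 protein-coding genes, and among members under 10 FPKM 2 of 7 (28.6%), beside 45.5% of 5825. ITGAV, at a mean of 38.5 FPKM, was the most abundant member without a peak, and ITGA5, at 17.9 FPKM, the next.

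**Figure D4:**
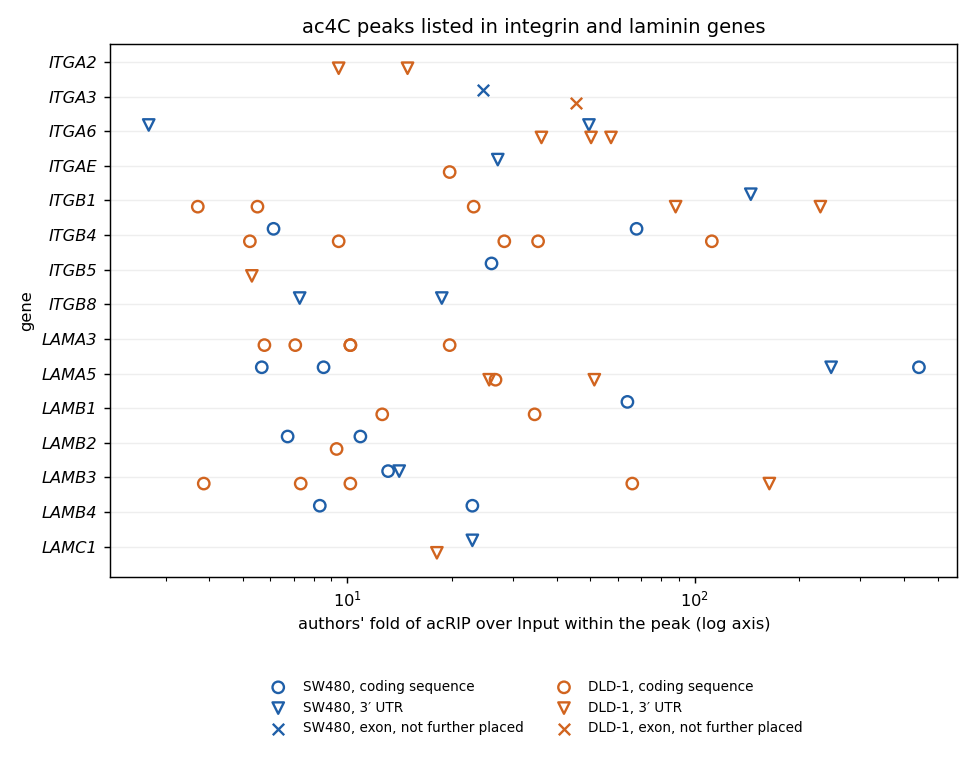
The authors' fold of acRIP over Input (log axis) for ac4C peaks listed in integrin and laminin genes in SW480 (blue) and DLD-1 (orange), as coding sequence (circles), 3′ UTR (triangles) or exon not placed further (crosses). LAMA5 holds the highest folds in SW480 (442 and 247) and ITGB1 the highest in DLD-1 (230).

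The members held 24 peaks in SW480, 0.269% of the 8924 peaks in protein-coding genes of that list, and 38 in DLD-1, 0.285% of 13336. In SW480 12 of 24 member peaks (50%, exact 95% interval 29.1 to 70.9) lay in coding sequence and 11 in the 3′ UTR, beside 25.8% and 56.3% of all. In DLD-1 24 of 38 (63.2%, 46.0 to 78.2) lay in coding sequence and 13 in the 3′ UTR, beside 40.02% and 43.2% of all. Peaks of 1 gene share that gene's RNA, so these intervals take as separate what may not be. The median fold of member peaks was 22.4 in SW480 and 18.9 in DLD-1, beside 19.8 and 14.7 for all. At least 1 base was shared with a peak of the other line, on the same strand, by 15 of the 24 peaks in SW480 (62.5%) and 13 of the 38 in DLD-1 (34.2%), beside 56.0% and 36.2% of all. By at least 50% of both peaks, 9 overlapped in SW480 (37.5%) and 9 in DLD-1 (23.7%), beside 36.2% and 24.1% of all.

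The strongest peaks lay in LAMA5, ITGB1, LAMB3 and ITGB4. LAMA5 had a peak of 442-fold in SW480 over 5 blocks, placed in coding sequence as a whole (chr20:62309119-62310421, minus strand, GRCh38), above 98.0% of the peaks in that list, and 1 of 247-fold in its 3′ UTR (chr20:62309108-62309257). These 2 peaks share 139 bases, so they are not separate measurements. In DLD-1 the overlapping peaks were listed at 51.4 and 25.6-fold, both placed in the 3′ UTR. ITGB1 had a peak in the 3′ UTR at 145-fold in SW480 (chr10:32900797-32901007, minus strand) and at 230-fold in DLD-1 (chr10:32900738-32901007), above 98.3% of that list. In DLD-1 ITGB1 had 4 further peaks between 3.71 and 88.1-fold, 3 of them in coding sequence. ITGB4 had its highest peak in coding sequence in both lines, at 68.0-fold in SW480 (chr17:75757220-75757728, plus strand) and 112-fold in DLD-1 (chr17:75756978-75757728). LAMB3 had 164-fold in DLD-1 over 4 blocks (chr1:209614930-209617993, minus strand) but 14.1 and 13.1-fold in SW480, where 2 separate peaks lay within the same span. Folds of different lists rest on libraries of unknown depth and are set side by side only.

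Other members had weaker or differently placed peaks. ITGA6 had peaks in the 3′ UTR alone, 2 in SW480 at 2.68 and 49.6-fold and 3 in DLD-1 at 36.2 to 57.4-fold. ITGA3 had 1 peak per line, at 24.6-fold in SW480 and 45.6-fold in DLD-1, both placed in an exon without further detail and without a shared base. LAMB1 had 64.0-fold in SW480 and 34.6-fold in DLD-1 in coding sequence, in peaks that share the boundary at base 107923889 of chr7 (minus strand). LAMB2 reached 10.9 and 9.31-fold, LAMC1 22.9 and 18.1-fold and ITGAE 27.1 and 19.7-fold, in SW480 and DLD-1. ITGB5 had 26.0-fold in coding sequence in SW480 and 5.31-fold in the 3′ UTR in DLD-1. The 5 peaks of LAMA3, all in coding sequence, were at 5.77 to 19.7-fold, and both peaks of ITGA2, in the 3′ UTR, at 9.44 and 14.9-fold.

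The peaks of LAMB4, ITGA2 and LAMA3 stand against the levels in the Inputs, while those of ITGB8 go with them. ITGB8, above 1 FPKM in the Input labelled SW480 alone, had 2 peaks in SW480 (7.29 and 18.7-fold), of which that at 7.29-fold did not reach an FDR of 0.05, and none in DLD-1. The line of the ITGB8 peaks was thus that of the Input label. LAMB4 was listed at 0 FPKM in all 4 libraries of the RIP table and in both acRIP-table Inputs, but had 2 peaks in SW480 (8.33 and 22.9-fold), that at 8.33-fold not reaching an FDR of 0.05 there. ITGA2 and LAMA3, which had peaks in DLD-1 alone, were lower in the Input labelled DLD-1 (5.33 against 11.9 FPKM, and 9.42 against 15.5 FPKM).

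The deposited lists also give the number of sites of the pattern CNNCNNCNNCNN, in which N is any base, within each peak. In coding sequence 9 of 12 member peaks in SW480 (75%) and 14 of 24 in DLD-1 (58.3%) held such a site, beside 62.3% and 58.0% of all coding peaks. In the 3′ UTR 1 of 11 in SW480 (9.09%) and 4 of 13 in DLD-1 (30.8%) did, beside 50.8% and 49.3% of all. ITGB1, with the highest fold in DLD-1, had no site in its 3′ UTR peaks, while the highest peaks of ITGB4 held 8 sites in SW480 and 9 in DLD-1. Sites per kilobase of 3′ UTR peak were 0.387 in SW480 and 2.83 in DLD-1 for members, and 4.37 and 3.69 for all. Most member sites in DLD-1 lay in a LAMA5 peak (7 sites) and a LAMB3 peak (4 sites), both of several blocks. The overlapping LAMA5 peak in SW480, with 8 sites, was placed in coding sequence, and the LAMB3 span was split between both places. The member values of the lines thus do not cover the same stretches. Longer peaks can hold more sites, and the part of peak length was not tested.

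Partner genes of the same structures were counted from 3 lists chosen by function. Of 9 basement membrane partners 7 passed the filter, of 6 hemidesmosome partners 5, and of 21 adaptors that bind integrin tails or focal adhesions 19. Under the SW480 label 2, 1 and 6 of these were at least 2-fold above Input and 1, 2 and 4 below, beside 22% and 9.53% of all protein-coding genes, whereas with the other label's Input 0, 0 and 1 were above and 1, 0 and 2 below, beside 10.9% and 3.58%. Under the DLD-1 label 0, 1 and 2 were above and 3, 1 and 4 below, beside 18% and 16.3%, whereas with the other label's Input 0, 0 and 1 were above and 0, 1 and 3 below, beside 10.7% and 3.86%. The partners past 2-fold in 1 direction over both Inputs were few. ILK, the integrin-linked pseudokinase that binds the tails of β chains, was above Input in both RIP libraries, at 4.06 and 5.59 under the SW480 label and 5.86 and 4.34 under the DLD-1 label (same and other Input). ILK was at 1.98 and 0.0357 FPKM in the RIP-table Inputs but at 20.0 and 19.3 FPKM in the acRIP-table Inputs, beside 48.8 and 59.4 FPKM in the RIP libraries. The acRIP-table values are given here before their scaling by 1.46 (SW480) and 1.51 (DLD-1). The ratios of ILK rest on the RIP-table Inputs alone, and those over the acRIP-table Inputs were not taken. BCAM, a laminin receptor of another family, was at -1.81 and -1.11 under the SW480 label, BCAR1, a docking protein of focal adhesions, at -1.43 and -1.01, and SHARPIN, an inhibitor of integrin activation, at -1.28 and -1.10. Under the DLD-1 label BCAM was at -0.29 and -0.99, BCAR1 at -0.59 and -1.02 and SHARPIN at -0.87 and -1.05, so none passed 2-fold over both Inputs there.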

How the data were processed

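Input, NAT10 RIP and ac4C acRIP libraries of SW480 and DLD-1 were grouped by the sample titles (1 library each, so no test between groups). The authors deposited FPKM values for RIP and Input, made by a sequencing provider, and a second pair of Input columns with the acRIP data, whose unit is not named and was read as FPKM. The submitters' processing notes name cutadapt 2.5, HISAT2 2.1.0 and the builds GRCh38 and hg38. The counting tool and peak caller are not given in the sources used here. The deposited RIP/Input ratio columns and their mean hold the authors' comparisons and were not used. For each ac4C peak the authors deposited a p-value, the logarithm of its FDR, a fold (ratio) of acRIP over Input, the place in the transcript and a count of motif sites. Peaks were called per line and on pooled libraries, and the lists per line were used for the text. Peak starts count from 0 and were moved by 1 base. FDR cells turned into spreadsheet errors were taken as below 0.05.

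Here, members were found by symbol among protein-coding genes, and genes with a mean of at least 1 FPKM over the 4 RIP-table libraries were kept. Ratios used a pseudocount of 1 FPKM and a 2-fold call. FPKM of a gene fall on whole-read steps between libraries, from which reads were solved for 99.9% of 23515 genes above 0 in at least 2 libraries. They are the smallest whole reads that give the values, so counting errors are upper limits where both libraries hold reads. A library at 0 reads added no counting error, so the errors of LAMC3 and ITGB8 are too small in ratios with such a library. The solver was tested on simulated data. Intervals of shares are exact binomial (95%), and a library at 0 was set to a floor of 3 reads for folds. acRIP-table Inputs were scaled to the RIP-table median for ratios. The genes named are members past the filter or with a peak (1 is counted but not reported here), and partners past 2-fold in 1 direction over both Inputs. Members and lists were chosen with earlier results of these data known. Python 3.11.15, pandas 2.3.3 and scipy 1.17.1 were used.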

Additional observations from a re-analysis of the deposited data

Results flagged for a closer look

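For 16 of the 22 integrin and laminin genes past the filter, RIP/Input had opposite signs under the SW480 and DLD-1 labels, with both 95% counting intervals clear of 0, beside 40.4% of 11577 protein-coding genes. The shares were not matched on level, which sets the width of these intervals. The 16 include ITGA1, ITGAX, ITGB6, ITGB8 and LAMC3, which passed the filter through 1 Input and the RIP library of the other label. The difference between the labels was not tested, since each group held 1 library. Above Input under the SW480 label and below it under the DLD-1 label were 8 genes: ITGAX (3.92 and -3.98), LAMC3 (2.21 and -2.07), ITGA1 (1.90 and -1.13), ITGA7 (1.26 and -3.19), ITGAE (0.91 and -0.81), ITGA5 (0.53 and -0.94), ITGA3 (0.39 and -0.82) and LAMC1 (0.077 and -0.71). The other 8 had the reverse signs: ITGB6 (-1.58 and 2.40), ITGB4 (-1.51 and 0.44), ITGB8 (-1.27 and 1.80), LAMB3 (-1.04 and 1.57), ITGA6 (-0.96 and 1.57), LAMB1 (-0.66 and 0.24), ITGA2 (-0.59 and 1.71) and LAMB2 (-0.20 and 0.82). With the other label's Input, 3 of these 16 genes still had opposite signs (ITGAX, ITGAE and ITGB6), and 1 member, ITGAX, did with both intervals clear of 0 (-0.19 and 0.13), beside 7.61% of all.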

How the results depend on the processing

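No paired analysis was possible because within a line the groups compared held 1 library each and shared 1 replicate number, and no library could be left out for the same reason. A fit over both lines as 2 pairs was not run. Under the SW480 label, 1 member was at least 2-fold above Input with the Input of the other label from either table or with at least 1 FPKM in both Inputs. Below Input were 0 with the Input of the other label from either table, 2 with at least 1 FPKM in both Inputs and 7 with the acRIP-table Input of the same label. Under the DLD-1 label, the higher calls became 0 with either Input of the other label and 3 with at least 1 FPKM in both Inputs. The lower calls became 1 with the RIP-table Input of the other label, 0 with that of the acRIP table and 1 with at least 1 FPKM in both Inputs. The median under the SW480 label became -0.18 after centring on all genes. The median under the DLD-1 label became -0.16 with every gene above 0 in any library, 0.12 with the Input of the other label and 0.069 with that of the acRIP table. Over the Input of the other label (RIP table, then acRIP table) ITGB8 reversed to 0.071 and 0.071, ITGA7 to -0.59 and -0.47 and LAMB3 to 0.38 and 0.24 under the SW480 label, where ITGAX reversed to -0.19 with the RIP table. Under the DLD-1 label ITGAX reversed to 0.13 and 0.11 and ITGA1 to 0.11 and 0.13, and ITGA6 (-0.47) and LAMB3 (-0.11) with the acRIP table. The cause was not tested. With only the peaks below their list's median p-value, members held 15 peaks in SW480 and 21 in DLD-1, fewer by construction. Of all 24 SW480 member peaks, without this limit, 9 were shared at an overlap of 50% of each. An alternative chosen after seeing the data, with libraries at 0 set to 3 reads, moved no median or count. The counts between lines past 2-fold stayed within 1.5 times under a pseudocount of 0.1 FPKM, no filter, centring and the acRIP-table Inputs.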
